A study of Mus musculus with 12 samples.

Results

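Pyruvate and long-chain fatty acids each cross into the mitochondrial matrix at a guarded step, and the genes of those steps were followed here: the pyruvate carrier subunits Mpc1 and Mpc2, the pyruvate dehydrogenase subunit Pdha1, the pyruvate dehydrogenase kinases Pdk2, Pdk3 and Pdk4, and the carnitine palmitoyltransferases Cpt1a and Cpt2. The 8 genes were listed by symbol. The set was chosen by the knockdown difference of Mpc1, whose log2 signal was known from these arrays to be higher with LOXL2 knockdown. The knockdown values of Mpc1 are therefore a description with no test, and the question is whether its partner and the neighbouring enzymes moved too. Of the 8 genes, 7 were found among the 22180 named genes tested. No transcript cluster of the array was paired with Mpc2 in the platform annotation used here, so the level of the partner subunit is not reported.

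The cells were E14, a mouse embryonic stem (ES) cell line, transduced with a short hairpin RNA against LOXL2 (shLOXL2), a lysyl oxidase family member, or with a control hairpin (shCT). The groups were shLOXL2 with RA at day 1, shCT with RA at day 1, shLOXL2 without RA at day 0 and shCT without RA at day 0, with 3 arrays in each of the 4 groups. RA was read as retinoic acid. Cells with RA were also 1 day later than those without, so the agent and the extra day cannot be told apart, and "RA" below stands for both. All cells carried a hairpin, and the labels name 1 construct for each arm. They are silent on whether the 3 arrays of a group were grown as separate cultures, so a p-value here weighs a difference against the spread among these samples, which may be technical only.

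Inside mitochondria, MPC1 and MPC2 proteins pair to form the carrier that brings pyruvate across the inner membrane. The pyruvate dehydrogenase complex then turns pyruvate into acetyl-CoA, and the PDK enzymes switch that complex off by phosphorylating its E1 alpha subunit, the product of Pdha1. CPT1 on the outer membrane joins long-chain fatty acids to carnitine, a carrier on the inner membrane exchanges the product, and CPT2 returns the fatty acid to coenzyme A for beta-oxidation. Pluripotent stem cells are known for a high rate of glycolysis, and entry of pyruvate into mitochondria is one of the points at which fuel use is set.

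The arrays carried the marks of their labels. The array medians ran from 4.58 to 4.68 log2 units, and correlations between any 2 arrays from 0.939 to 0.985. All 12 ES cell markers examined lay above the array median in each group. So did 5 or 6 of 9 fibroblast markers and all 6 primitive endoderm markers, so this count does not tell these cell types apart. The mean over the 12 ES cell markers lay between 8.65 and 9.20 in every array, and that over the 9 fibroblast markers between 4.44 and 4.81. All 5 measured genes of the RA check rose with RA in both constructs, by 1.67 to 5.29 log2 units. Both clusters annotated to Loxl2 are shared with the predicted gene Gm21451. Cluster 17301634 was lower in all 3 shLOXL2 arrays than in any shCT array in either RA state, at 60.0% of shCT on average, but its limma adjusted p was not past 0.05 over all clusters. Cluster 17301670 was lower in all 3 shLOXL2 arrays with RA, by -1.08 ± 0.22, but without RA the groups overlapped (-0.16 ± 0.22, 89.6% of shCT), so by this cluster no knockdown was seen without RA. Within groups, arrays spread along 1 main axis that held 49.4% of the within-group variance, and its ends were replicates 1 and 3 of shCT without RA. The mean over 6 primitive endoderm markers followed part of this spread. It was 7.37, 6.97 and 6.60 in shCT with RA and 7.29, 6.46 and 6.27 in shCT without RA (replicates 1, 2 and 3), while it ran from 6.81 to 6.87 in shLOXL2 with RA and from 6.29 to 6.39 in shLOXL2 without RA. Its part in the results was not tested. In bulk RNA, fewer cells of a type and less RNA per cell cannot be told apart.

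The annotation assigned 2 transcript clusters to Mpc1, and they gave different pictures. In cluster 17284037, the brighter of them and the one that represents Mpc1 among the tested genes, the log2 signal was 8.87, 9.35 and 9.58 in shLOXL2 with RA, against 8.001, 8.07 and 8.24 in shCT with RA. Without RA it was 8.44, 8.73 and 8.92 in shLOXL2, against 7.40, 8.07 and 7.92 in shCT. Every shLOXL2 array was higher than every shCT array in both RA states. The log2 difference, shLOXL2 minus shCT, was 1.17 ± 0.21 (SE) with RA, 0.90 ± 0.21 without RA and 1.03 ± 0.15 on average, which is 2.04-fold.

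In cluster 17333079, also annotated to Mpc1, the log2 signal was 5.59, 5.63 and 5.60 in shLOXL2 with RA, against 5.48, 5.44 and 5.34 in shCT with RA. Without RA it was 5.48, 5.49 and 5.65 in shLOXL2, against 5.73, 5.31 and 5.44 in shCT. The shLOXL2 arrays were higher than all shCT arrays with RA, by little, and overlapped them without RA. The knockdown difference was 0.18 ± 0.13 with RA, 0.05 ± 0.13 without RA and 0.11 ± 0.09 on average (95% interval from -0.08 to 0.31). In the same fit over all clusters the interval of the brighter cluster ran from 0.69 to 1.37. The clusters correlated at r = 0.30 over the 12 arrays, and their deviations from the group means at r = -0.43, as a description over arrays that share 4 groups.

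**Figure D1:**
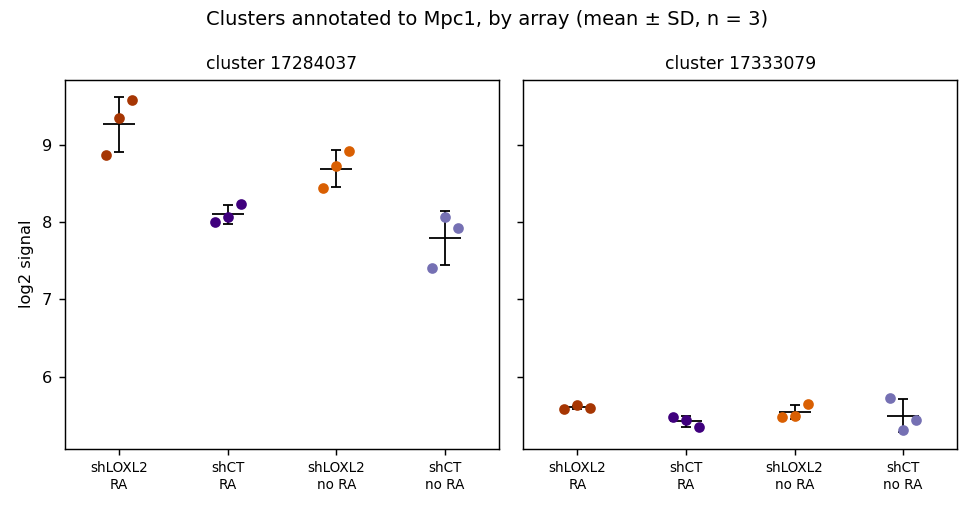
Log2 signal of the 2 clusters annotated to Mpc1 in each of the 12 arrays (points), with the group mean and SD (n = 3). In cluster 17284037 the shLOXL2 arrays lie above the shCT arrays in both RA states, while in cluster 17333079 all arrays lie between 5.31 and 5.73.

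The order of the array's identifiers bears on which locus each cluster reads. Consecutive named clusters belonged to genes of 1 chromosome in 98.4% of pairs. The named neighbours of cluster 17333079 were Gm8465 and Sft2d1, and Mpc1 lies between these genes in the RefSeq gene table (GRCm38.p6). The named neighbours of cluster 17284037 were Mok and Cinp, on another chromosome, and the RefSeq table places Mpc1-ps, a pseudogene of Mpc1, between Mok and Cinp. Among 23323 clusters that could be checked in this way, 136 (0.583%) had both neighbours on 1 chromosome other than that of the annotated gene, and 125 of these belonged to genes with a further cluster. The files give no probe positions or probe sequences, so reads of Mpc1 and of its pseudogene could not be separated, and the 2.04-fold difference belongs to a cluster whose locus is uncertain. Neither neighbour differed with knockdown past the threshold (limma, Benjamini-Hochberg adjusted): the average difference was 0.22 ± 0.14 for Mok (adjusted p = 0.833) and -0.02 ± 0.09 for Cinp (adjusted p = 0.989), both named after their values were seen.

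None of the 6 other measured members passed the limma threshold (adjusted p under 0.05 over all genes) for LOXL2 knockdown with RA, without RA or on average. At an unadjusted p under 0.05 there was 1 of 6 with RA, 0 of 6 without RA and 1 of 6 on average, each time Cpt1a. Over all genes 0% were called with RA, 0% without RA and 0.0541% on average, so 0 of 6 is near the background. Unadjusted p-values under 0.05 numbered 1100 with RA, 1037 without RA and 1490 on average among 22180 genes. The median difference of the 6 genes on average was 0.01, against 0.00 over all genes. The differences are plotted with their intervals beside both Mpc1 clusters.

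**Figure D2:**
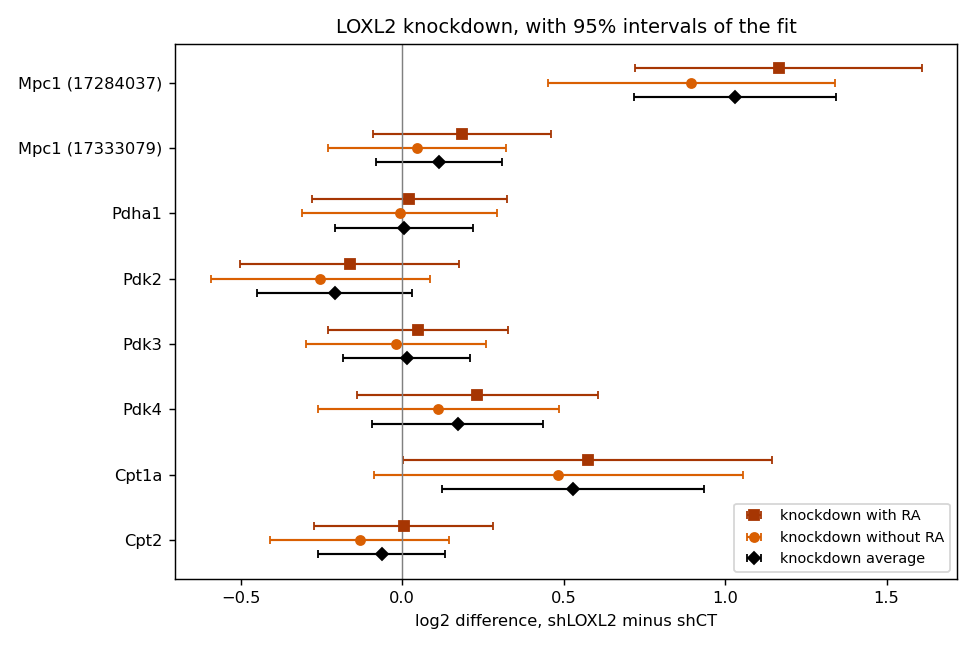
Log2 difference, shLOXL2 minus shCT, of each measured member and of both clusters annotated to Mpc1, with RA (squares), without RA (circles) and on average (diamonds), with 95% intervals of the limma fit (3 arrays per group). Apart from cluster 17284037, the interval of the average excludes 0 for Cpt1a alone, from 0.12 to 0.93, before adjustment over all genes.

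Pdha1, which encodes the E1 alpha subunit of pyruvate dehydrogenase, did not separate the groups. Its log2 signal was 8.84, 8.68 and 8.96 in shLOXL2 with RA, against 8.84, 8.78 and 8.81 in shCT with RA. Without RA it was 8.96, 9.09 and 8.77 in shLOXL2, against 8.70, 9.03 and 9.13 in shCT. The groups overlapped in both RA states, and the average knockdown difference was 0.01 ± 0.10 with a 95% interval from -0.21 to 0.22. With RA against without RA the difference was -0.11 ± 0.14 in shLOXL2 and -0.14 ± 0.14 in shCT.

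The 3 kinases did not share a direction with knockdown. Pdk2, a broadly expressed kinase of the complex, had a log2 signal of 5.50, 5.83 and 5.69 in shLOXL2 with RA, against 5.78, 5.80 and 5.92 in shCT with RA. Without RA its values were 5.33, 5.83 and 5.97 in shLOXL2, against 5.99, 6.02 and 5.88 in shCT. The average difference was -0.21 ± 0.11 (limma adjusted p = 0.789), and the groups overlapped in both RA states. Replicate 1 of shLOXL2 was the lowest array for Pdk2 in each RA state.

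Pdk3, another kinase of the same family, differed with knockdown by 0.01 ± 0.09 on average (adjusted p = 0.994). Its shLOXL2 arrays with RA lay close together, at 7.29, 7.35 and 7.32, against 6.90, 7.17 and 7.20 without RA, with every array with RA above every array without. In shCT the values were 7.28, 7.22 and 7.31 with RA, against 7.34, 6.997 and 6.99 without RA, where replicate 1 without RA was the highest of the 6 arrays. The RA difference was 0.23 ± 0.13 in shLOXL2 and 0.16 ± 0.13 in shCT, neither past the threshold (adjusted p = 0.471 and 0.618).

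Pdk4, a kinase known to rise with fasting and fatty acid use, had a log2 signal of 5.38, 5.78 and 5.80 in shLOXL2 with RA, against 5.23, 5.28 and 5.75 in shCT with RA. Without RA it was 5.42, 5.83 and 5.80 in shLOXL2, against 5.47, 5.60 and 5.66 in shCT. The groups overlapped in both RA states. The average knockdown difference was 0.17 ± 0.12 (adjusted p = 0.874), and RA differences were -0.03 ± 0.17 in shLOXL2 and -0.15 ± 0.17 in shCT.

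Cpt1a, the rate-limiting gate for long-chain fatty acids, had the widest spread of the 6. Its log2 signal was 7.26, 7.69 and 7.63 in shLOXL2 with RA, against 6.84, 6.61 and 7.42 in shCT with RA. Without RA it was 7.19, 8.14 and 8.24 in shLOXL2, against 7.30, 7.19 and 7.62 in shCT. In each RA state 2 of 3 shLOXL2 arrays lay above all shCT arrays. Replicate 1 of shLOXL2 lay among the shCT values with RA and level with the lowest shCT array without RA. The knockdown difference was 0.57 ± 0.27 with RA, 0.48 ± 0.27 without RA and 0.53 ± 0.19 on average (unadjusted p = 0.0143 and adjusted p = 0.542 in limma), or 1.44-fold, with a 95% interval from 0.12 to 0.93. With weights for array quality it was 0.79 ± 0.13 on average (limma adjusted p = 0.00575). In that fit 1002 of 22180 genes passed for knockdown on average, against 12 without weights. With 1 array left out, the difference without RA ran from 0.29 (without replicate 3 of shLOXL2 without RA) to 0.82 (without replicate 1 of shLOXL2 without RA), that with RA from 0.40 to 0.81, and the average from 0.43 to 0.69. The array weights ran from 0.332 to 6.26. The highest were those of replicate 2 without RA, 6.26 in shCT and 3.08 in shLOXL2. The weighted means without RA therefore rest mostly on 1 array in each construct, with Cpt1a at 7.19 and 8.14. Replicate 1 held 0.464 in shLOXL2 and 1.25 in shCT with RA, and 0.390 in shLOXL2 and 0.332 in shCT without RA.

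Cpt2, which completes the carnitine shuttle on the matrix side, had a log2 signal of 6.94, 7.10 and 7.09 in shLOXL2 with RA, against 6.48, 6.81 and 6.92 without RA. In shCT it was 7.10, 7.03 and 6.99 with RA, against 6.94, 6.85 and 6.82 without RA. All arrays with RA were higher than all arrays without RA within each construct. The difference was 0.30 ± 0.13 in shLOXL2 (adjusted p = 0.292), 0.17 ± 0.13 in shCT (adjusted p = 0.59) and 0.24 ± 0.09 on average (adjusted p = 0.133), so it did not pass the threshold. With knockdown it differed by -0.06 ± 0.09 on average. Deviations of Cpt2 and Pdk3 from their group means ran with the main axis of within-group spread (r = 0.80 and 0.78 over 12 arrays).

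**Figure D3:**
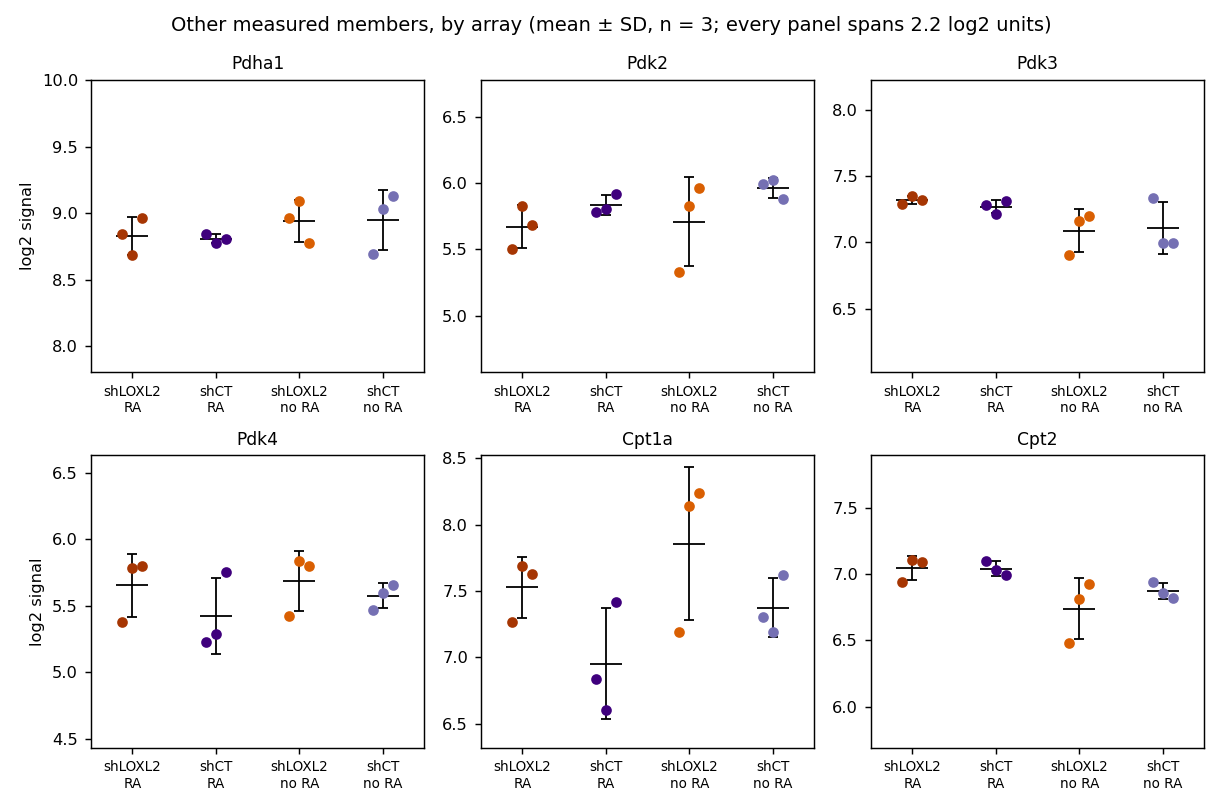
Log2 signal of the 6 measured members other than Mpc1 in each of the 12 arrays (points), with the group mean and SD (n = 3). Cpt1a spreads most within groups, with replicate 1 of shLOXL2 without RA at 7.19 beside 8.14 and 8.24, and Cpt2 is higher with RA than without RA in every array of a construct.

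RA was the other comparison of the design, and the rule that chose the set did not use the RA difference itself. It did use the knockdown difference of Mpc1, which comes from the same arrays. The RA values of Mpc1 within a construct, and their difference between constructs, are therefore not independent of that choice. The lists of neighbouring genes read below were written with earlier results of these data known, so their RA counts are not blind. No measured member passed the limma threshold for RA in shLOXL2, in shCT or on average of both constructs, where 3.46%, 4.25% and 10.3% of all genes passed. Of all genes, 2.05% rose and 1.41% fell in shLOXL2, and 2.16% rose and 2.09% fell in shCT. At an unadjusted p under 0.05 there were 2 of 7 in shLOXL2, 0 of 7 in shCT and 2 of 7 on average, namely Mpc1 and Cpt2. Among all 22180 genes such p-values numbered 3188 in shLOXL2, 3657 in shCT and 4914 on average, so these member counts are not read as a result. Cluster 17284037 of Mpc1 differed with RA by 0.57 ± 0.21 in shLOXL2 (adjusted p = 0.189), 0.30 ± 0.21 in shCT (adjusted p = 0.53) and 0.44 ± 0.15 on average (adjusted p = 0.0787). Those values took no arrays as paired. With arrays of equal number within each construct as a fixed block, the shLOXL2 difference of this cluster passed (0.57 ± 0.13, limma adjusted p = 0.0255). In that fit 1624 of 22180 genes passed for RA in shLOXL2, against 768 without the block. Cluster 17333079 differed with RA by 0.07 ± 0.13 in shLOXL2 and -0.07 ± 0.13 in shCT. Cpt1a differed with RA by -0.33 ± 0.27 in shLOXL2 and -0.42 ± 0.27 in shCT, with overlapping arrays (average adjusted p = 0.267). With 1 array left out, the shLOXL2 value ran from -0.66 (without replicate 1 of shLOXL2 without RA) to -0.14 (without replicate 3 of shLOXL2 without RA), and the shCT value from -0.65 to -0.25.

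**Figure D4:**
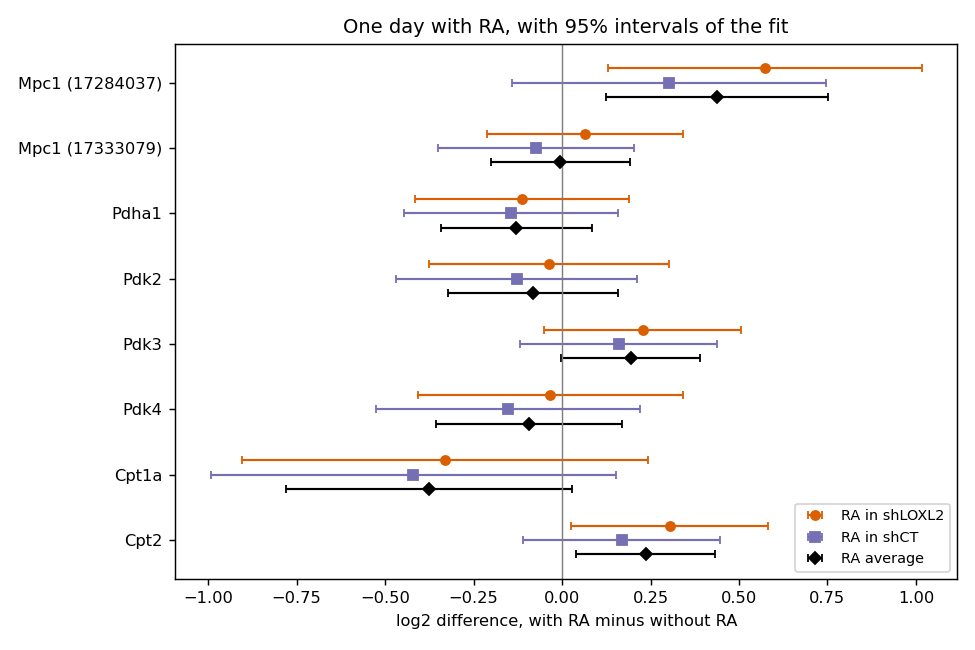
Log2 difference, with RA minus without RA, of each measured member and of both clusters annotated to Mpc1, in shLOXL2 (circles), in shCT (squares) and on average (diamonds), with 95% intervals of the limma fit (3 arrays per group). The averages run from -0.38 for Cpt1a to 0.44 for cluster 17284037 of Mpc1, and none passed the threshold.

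The RA difference did not differ between constructs for any measured member at the limma threshold (0 of 7, and 0 of 7 at an unadjusted p under 0.05). Over all genes 0% passed, and 652 of 22180 had an unadjusted p under 0.05. The differences between the RA differences, shLOXL2 minus shCT, ran from 0.03 ± 0.20 for Pdha1 to 0.27 ± 0.29 for Mpc1. All 7 were above 0, with a median of 0.09, while 51.8% of all genes were above 0, with a median of 0.01. Mpc1, the largest of the 7, was chosen by its knockdown difference. The 7 genes share the same arrays, so they are not independent signs.

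Some pairs of members varied together across arrays, and others did not, such as Cpt1a and Cpt2 (r = -0.11) or Mpc1 and Pdha1 (r = -0.01). Over the 12 arrays Pdk4 and Cpt1a had the highest correlation of any pair of members, r = 0.87, and their deviations from the group means correlated at r = 0.88. For deviations alone Pdk2 and Cpt2 were slightly higher, at r = 0.89, against r = 0.44 over the arrays. Pdk3 and Cpt2 correlated at r = 0.84 over the arrays, and Pdha1 ran against Pdk3 at r = -0.70. These coefficients describe 12 arrays of 4 groups that share the main axis of spread and carry no test. By the same measure the genes most like cluster 17284037 of Mpc1 were Sptbn1 (r = 0.92), a spectrin of the membrane skeleton, Zfp185 (r = 0.91) and Lacc1 (r = 0.90).

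The start regions of Pdk4 and Cpt1a, the pair with the highest correlation over the 12 arrays though not in deviations from the group means, are shown so that their sequences can be set beside the values, as the 250 bases before the RefSeq transcription start (GRCm38.p6), with matches to CCAAT and to AGGTCA on either strand in capitals. CCAAT is the core of a common promoter element, and AGGTCA is the half-site bound by nuclear receptors, among them the retinoic acid receptors and the PPARs. The Cpt1a window is chr19:3323051-3323300 on the + strand and the Pdk4 window is chr6:5496279-5496528 on the - strand.
Cpt1a: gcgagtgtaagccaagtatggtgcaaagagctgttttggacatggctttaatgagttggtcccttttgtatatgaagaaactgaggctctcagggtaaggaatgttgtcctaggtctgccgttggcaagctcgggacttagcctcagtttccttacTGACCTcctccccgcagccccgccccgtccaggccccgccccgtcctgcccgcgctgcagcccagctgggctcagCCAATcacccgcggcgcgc
Pdk4: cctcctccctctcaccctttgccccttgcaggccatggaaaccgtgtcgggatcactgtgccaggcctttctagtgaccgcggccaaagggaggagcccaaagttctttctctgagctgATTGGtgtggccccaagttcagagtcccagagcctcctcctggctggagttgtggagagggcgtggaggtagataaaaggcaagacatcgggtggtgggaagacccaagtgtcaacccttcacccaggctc
Each window held 1 CCAAT match, and the Cpt1a window also held 1 AGGTCA match on the other strand, with no overlap between motifs. Among 32851 RefSeq start windows of this length, 33.8% held CCAAT and 14% held AGGTCA in either orientation. Of the 10 windows of the 8 listed genes, 6 held CCAAT and 2 held AGGTCA. These matches are letters in a window, and the arrays do not measure binding.

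The genes around these entry points were read from lists of the pathway. For LOXL2 knockdown on average, 1 of their genes passed the threshold, at the step between Cpt1a and Cpt2. That gene, Slc25a20, the carnitine-acylcarnitine carrier of the inner membrane, had a log2 signal of 7.60, 7.87 and 7.79 in shLOXL2 with RA, against 7.05, 6.71 and 6.98 in shCT with RA. Without RA it was 7.35, 7.65 and 7.79 in shLOXL2, against 7.10, 6.81 and 6.79 in shCT. The groups did not overlap in either RA state, and the average difference was 0.77 ± 0.11 (limma adjusted p = 0.0172). It ran from 0.72 to 0.83 with 1 array left out, and the adjusted p rose above 0.05, up to 0.0835, in 8 of 12 such fits. The call was also lost with the replicate number as a block over all groups (adjusted p = 0.0721), with a random block per construct (adjusted p = 0.0574) and in the fit over all transcript clusters (adjusted p = 0.0906). The 4 fits that kept the call were those without replicates 1 and 3 of shCT without RA and without replicate 1 of shLOXL2 with and without RA. The rise of Slc25a20 was known when the list was written, so the count is not independent evidence of a direction.

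The other genes of fatty acid activation and the carnitine shuttle did not pass for knockdown. Of 17 genes listed, 14 were measured, and 1 rose and 0 fell on average, with a median difference of -0.01. Among 15 genes of mitochondrial beta-oxidation 0 passed in limma (3 at an unadjusted p under 0.05), with a median of 0.08, and the smallest p-values were those of the reductase gene Decr1 (-0.27 ± 0.10, adjusted p = 0.553) and Etfb, an electron transfer flavoprotein subunit (-0.26 ± 0.11, adjusted p = 0.678). Of the 11 other genes of the pyruvate dehydrogenase complex and its regulators 0 passed (0 unadjusted), with a median of 0.08 and a range from -0.10 to 0.16. Of 12 other genes that handle pyruvate and lactate 0 passed (1 unadjusted), with a median of 0.01, and Slc16a7, a monocarboxylate transporter, stood at -0.28 ± 0.10 (adjusted p = 0.573). Over all genes the median was 0.00, with 0.0361% called higher and 0.018% called lower.

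With RA on average of both constructs, more of these neighbours passed than for knockdown, and 10.3% of all genes passed too. Most genes of these lists lay above the array median. In the fit without genes dimmer than the median 2365 passed, against 2289 of all 22180. That fit tested only the genes at or above the median brightness, so 10.3% understates the share among brighter genes by far. The list counts below are therefore not read as more than that share. In the pyruvate dehydrogenase list 2 of 11 fell and 0 rose, with a median of -0.09. Pdk1, the kinase of the family that was not among the listed genes, fell by 0.70 ± 0.11 (adjusted p = 0.000682). Its log2 signal was 7.33, 7.17 and 7.27 in shLOXL2 with RA, against 7.97, 7.90 and 7.73 without RA, and 6.91, 6.93 and 7.35 in shCT with RA, against 7.69, 7.81 and 8.09 without RA. Arrays with and without RA did not overlap in either construct. Lipt1, a lipoyltransferase needed for lipoylation of mitochondrial dehydrogenases, fell by 0.54 ± 0.09 (adjusted p = 0.00159). For RA on average both calls held in all 12 fits with 1 array left out. In shLOXL2 alone Pdk1 passed (-0.61, limma adjusted p = 0.0407), but that call was lost in 9 of 12 such fits. It was also lost when the clusters of Pdk1 were averaged (-0.47, limma adjusted p = 0.146).

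**Figure D5:**
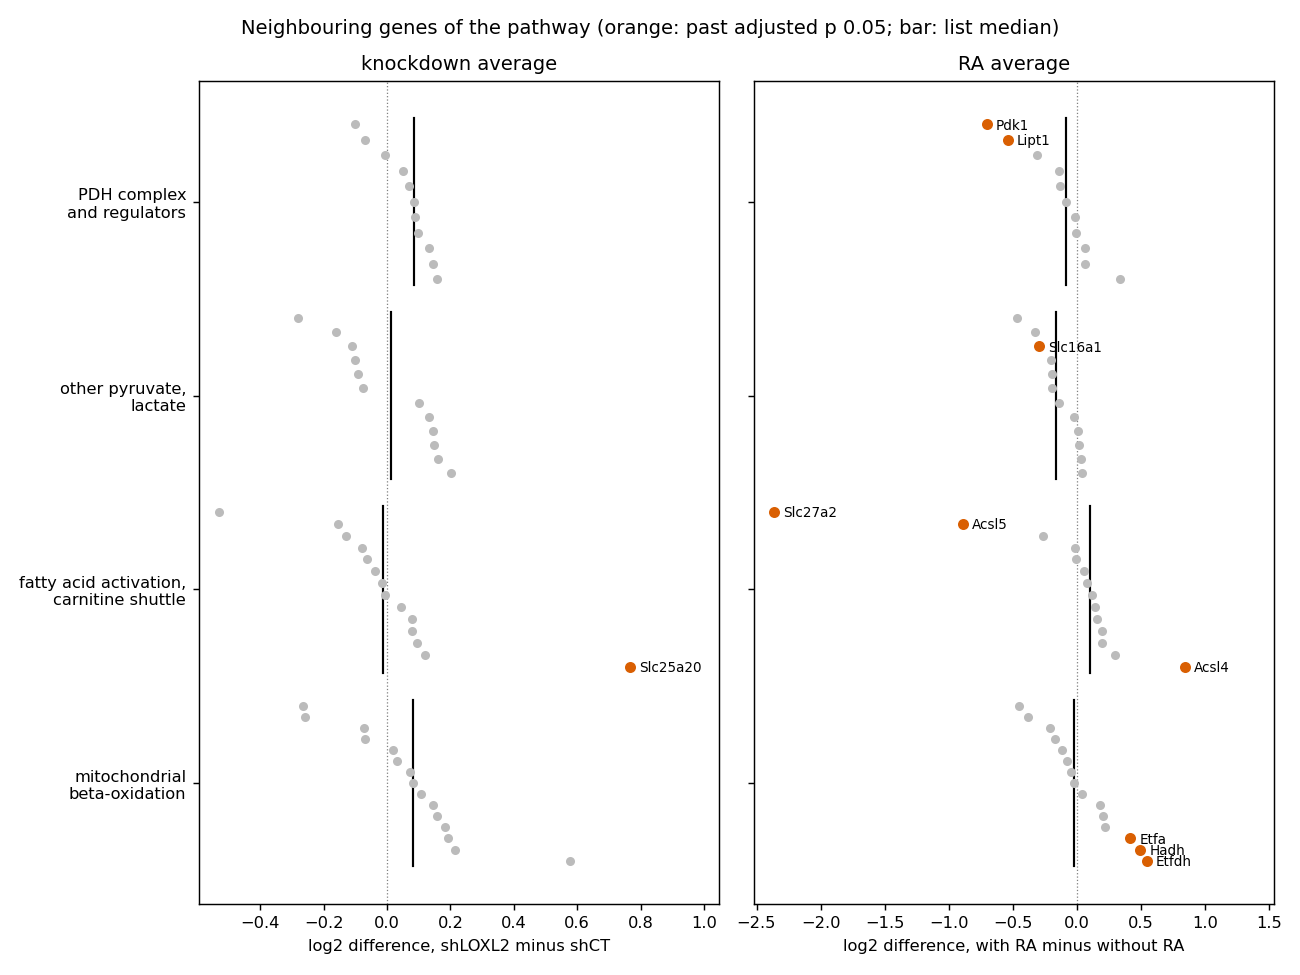
Log2 differences of the measured genes of 4 pathway lists, for LOXL2 knockdown on average (left, shLOXL2 minus shCT) and for RA on average (right, with RA minus without RA). Points in orange passed an adjusted p of 0.05 over all genes and the bars are list medians. Slc25a20 is the 1 gene past the threshold on the left, and Slc27a2 at -2.36 is the farthest from 0 on the right.

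In the fatty acid activation list 1 of 14 rose and 2 fell with RA on average, with a median of 0.10. Slc27a2, a fatty acid transporter with acyl-CoA synthetase activity, differed by -2.36 ± 0.13 when read from its brightest cluster (adjusted p = 9.34e-08) and by -1.38 ± 0.08 when its clusters were averaged. Acsl5, an acyl-CoA synthetase, fell by 0.89 ± 0.11 (adjusted p = 0.000108). Acsl4, a synthetase that prefers arachidonic acid, rose by 0.85 ± 0.24 (adjusted p = 0.0384), a call lost in 9 of 12 fits with 1 array left out (adjusted p up to 0.0998). It was kept without replicate 3 of shCT without RA, replicate 1 of shLOXL2 without RA or replicate 2 of shLOXL2 with RA.

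In the beta-oxidation list 3 of 15 rose and 0 fell with RA on average, with a median of -0.02. Etfdh, which passes electrons from the flavoprotein to ubiquinone, rose by 0.55 ± 0.12 (adjusted p = 0.00782), and Hadh, the short-chain hydroxyacyl-CoA dehydrogenase, rose by 0.50 ± 0.08 (adjusted p = 0.00155). Etfa rose by 0.42 ± 0.12 (adjusted p = 0.0444), and its call was kept in 4 of 12 fits with 1 array left out, those without replicates 2 and 3 of shCT without RA, replicate 2 of shCT with RA or replicate 1 of shLOXL2 without RA. Among the other pyruvate and lactate genes 1 of 12 fell, Slc16a1, a lactate and pyruvate transporter, by 0.30 ± 0.08 (adjusted p = 0.0293), with a list median of -0.16. That call was kept without replicate 1 of shCT without RA, replicate 3 of shCT with RA or replicate 1 of shLOXL2 without RA, and was lost in the other 9 fits. Over all genes the median RA difference was -0.01, with 5.52% called higher and 4.8% called lower.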

How the data were processed

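Trizol-extracted RNA was labelled with an Affymetrix whole-transcript kit, per the labels' protocols. The authors deposited log2 signals of 41345 transcript clusters in 12 columns, 1 for each array. The submitters' processing notes list RMA, limma and R 3.1.1 without saying what each did. The genome build of the array is not given in the sources used here. Values were used as deposited, so changes in total RNA per cell are not visible.

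Clusters were named through the platform annotation, with symbols updated through the RefSeq gene table (GRCm38.p6): 23521 clusters had 1 gene, 23328 of them matched, 1814 had several genes and 16010 were unnamed here. The brightest cluster stood for a gene. One limma 3.58.1 fit (R 4.3.3) over all 12 arrays, with 1 mean per group, gave 7 contrasts. P-values were adjusted by Benjamini-Hochberg over 22180 genes, with a threshold of 0.05. Values for single clusters come from the same fit over all clusters. The script was tested on simulated data. For arrays, their number limits the precision.

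The members, gene lists, tests and alternatives were chosen with earlier results of these data known. All members were named, with the list genes past the threshold or, where none passed, those with the smallest p. The 3 genes most correlated with Mpc1 were also named, from a ranking without predicted symbols and the other kinds listed above.

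The labels do not say whether replicate numbers pair arrays. Deviations of arrays of equal number correlated at 0.56, 0.25 and 0.22 between shLOXL2 with and without RA, and at 0.36, 0.04 and 0.63 in shCT. Between constructs they lay between -0.55 and 0.20. The main fit took no arrays as paired, and the block fits per construct paired arrays of equal number in both constructs.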

Additional observations from a re-analysis of the deposited data

How the results depend on the processing

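Each contrast was refitted in up to 24 listed ways, and in 1 more that was chosen after seeing the data. With the replicate number as a block over all groups, 1 member passed for RA on average (Mpc1), where 1997 of 22180 genes passed. With a fixed replicate block per construct 1 passed for RA in shLOXL2 (Mpc1) and 2 for RA on average (Mpc1 and Cpt1a). With a random one (consensus correlation 0.323) these were 1 and 2 (Mpc1 and Cpt2). Over all genes 1624 and 3677 passed with the fixed block, and 1675 and 3871 with the random one. The block changed no other member's call. Array weights gave 1 member other than Mpc1 (Cpt1a) for knockdown without RA and 1 on average, where 2875 and 1002 of 22180 genes passed. They gave 1 member for RA in shLOXL2 and 4 for RA on average, where 2663 and 5975 genes passed. The axis as a covariate gave 2 for RA on average (Mpc1 and Cpt2), where 4584 of all genes passed. The axis is built from deviations within groups, so it cannot move a difference and only lowers the residual spread. With 1 array left out, members called for RA on average ran from 0 to 1, while 1684 to 2605 of all genes passed. The member was Cpt1a (-0.54) without replicate 1 of shLOXL2 without RA, and Mpc1 (0.54) without replicate 1 of shLOXL2 with RA. The mean of its clusters moved the Mpc1 knockdown difference to 0.67 with RA, 0.47 without RA and 0.57 on average. Its other cluster, the added alternative, gave 0.18 with RA, 0.045 without RA and 0.11 on average.

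Counts over all genes moved more. For knockdown on average 12 passed, but 1 with the replicate block over all groups, 0 with the random block, 1 over all clusters, 22 with a variance trend, 27 without dim genes, 136 with the axis, 1002 with array weights and 0 to 19 with 1 array left out. For RA in shLOXL2 768 passed, against 1624 (fixed block), 1675 (random block), 2212 (axis), 2663 (array weights) and 444 to 916 with 1 array left out. For RA in shCT 943 passed, against 1800, 2047, 2474, 5224 and 483 to 1049, and 599 with only the groups compared. For RA on average 2289 passed, against 3677, 3871, 4584 and 5975. For knockdown with RA array weights and the axis each gave 9, and without RA they gave 2875 and 22, against 0 as reported. The cause was not tested.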

Other observations

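Further along the pathway, no gene of the tricarboxylic acid cycle passed in either comparison. Of 17 genes listed, 16 were measured, and 0 passed the limma threshold for knockdown on average (median difference 0.00, from -0.19 to 0.22) and 0 for RA on average (median 0.01, from -0.20 to 0.22). At an unadjusted p under 0.05 there were 2 for RA and 2 for knockdown, namely the citrate synthase gene Cs (0.22 ± 0.10, adjusted p = 0.708) and Suclg2, a succinyl-CoA ligase subunit (-0.19 ± 0.08, adjusted p = 0.691). Among all 22180 genes such p-values numbered 4914 for RA and 1490 for knockdown.

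Among 11 nuclear regulators of fuel use 0 passed in limma for knockdown on average (1 at an unadjusted p under 0.05). Ppard, a nuclear receptor for fatty acids, had the smallest p (-0.31 ± 0.09, adjusted p = 0.376). With RA on average 2 of 11 fell and 0 rose. Ppargc1b, a coactivator of mitochondrial genes, fell by 0.46 ± 0.12 (adjusted p = 0.0266), and its call was lost in 8 of 12 fits with 1 array left out, those other than without replicate 3 of shCT without RA, replicate 2 of shCT with RA, replicate 1 of shLOXL2 without RA and replicate 3 of shLOXL2 with RA. Foxo1, a forkhead factor that acts on fasting genes, fell by 0.32 ± 0.07 (adjusted p = 0.0134), but differed by -0.15 (adjusted p = 0.36) when its clusters were averaged.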
